A study of Homo sapiens with 8 samples.

Results

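The miR-26 and miR-101 families are described here by 6 mature arms: miR-26a-5p, miR-26b-5p, miR-26b-3p, miR-101-5p, miR-101-2-5p and miR-101-3p. They were taken by name, not by their values, and all 6 were among the 594 miRNAs measured. Small RNAs were sequenced in H1 cells, an established line of human embryonic stem cells, with 2 libraries in each of 4 Dicer genotypes. The groups were Dicer-S1344L homozygous cells, Dicer-S1344L hemizygous cells, Dicer-null cells and wild-type cells. The S1344L lines were engineered with CRISPR-Cas9, every group shares the H1 background, and no drug or other treatment is named. The libraries came from independent RNA samples, per the labels; how many clones stand behind a genotype is not given in the sources used here. Hemizygous is the word of the labels. The libraries are named pmfs in hemizygous, pmpm in homozygous and fsfs in null cells, so the names of hemizygous and null libraries share the part fs. The second allele of hemizygous cells was not examined here.

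Dicer cuts the loop from a miRNA hairpin and releases a 5p arm and a 3p arm. Its RNase IIIb domain makes the cut at the 5p arm and its RNase IIIa domain the cut at the 3p arm, and the substitution S1344L recurs in cancers. One arm, the guide, is usually loaded into Argonaute and pairs through its seed (bases 2 to 8) with target mRNAs, while the other arm, the passenger, is mostly discarded. Both families have been reported to repress EZH2, the histone methyltransferase of the Polycomb repressive complex, but they reach it from opposite arms. The miR-26 guides are 5p arms and the miR-101 guide is a 3p arm.

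The mature sequences (RefSeq, GRCh38.p14) are shown because the seed decides which arms can act as one family. They run 5′ to 3′ with the seed in capitals, and the 3p arms of the miR-26a loci, which are not among the 6 arms but complete the hairpins, are included.
miR-26a-5p: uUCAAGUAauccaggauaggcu
miR-26b-5p: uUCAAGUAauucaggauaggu
miR-101-3p: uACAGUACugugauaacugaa
miR-26b-3p: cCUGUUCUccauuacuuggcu
miR-26a-1-3p: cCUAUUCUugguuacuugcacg
miR-26a-2-3p: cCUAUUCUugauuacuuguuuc
miR-101-5p: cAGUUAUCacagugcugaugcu
miR-101-2-5p: uCGGUUAUcaugguaccgaugc
The miR-26a and miR-26b guides share the whole seed and 19 of 21 compared bases. They differ by C11U and C21U, where the first base is that of miR-26a-5p and positions count from 1 at the 5′ end. All 3 guides begin with U, whereas miR-26b-3p, both miR-26a 3p arms and miR-101-5p begin with C. The passenger miR-101-2-5p begins with U like the guides, so the first base does not separate guides from passengers here. The 3 passengers of the miR-26 hairpins do not carry the guide seed, and the miR-101 passengers have different seeds from each other.

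Since the comparisons turn on which arm is cut from which hairpin, the hairpins are shown with both mature arms in capitals and the loop between them in lower case.
MIR26A1: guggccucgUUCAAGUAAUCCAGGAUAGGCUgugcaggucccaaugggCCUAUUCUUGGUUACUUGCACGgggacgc
MIR26A2: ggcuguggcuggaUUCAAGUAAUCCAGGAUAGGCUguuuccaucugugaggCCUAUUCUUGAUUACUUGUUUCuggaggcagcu
MIR26B: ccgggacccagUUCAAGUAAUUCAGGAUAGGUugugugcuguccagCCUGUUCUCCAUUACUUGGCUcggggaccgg
MIR101-1: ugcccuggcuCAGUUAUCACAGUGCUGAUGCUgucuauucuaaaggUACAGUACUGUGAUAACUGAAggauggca
MIR101-2: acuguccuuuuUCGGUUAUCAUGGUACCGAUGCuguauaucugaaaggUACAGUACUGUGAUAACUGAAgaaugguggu
MIR26A1 lies at chr3:37969404-37969480 on the plus strand in an intron of CTDSPL, and MIR26A2 at chr12:57824609-57824692 on the minus strand in an intron of CTDSP2. MIR26B lies at chr2:218402646-218402722 on the plus strand in an intron of CTDSP1. The 3 host genes encode small phosphatases that act on the tail of RNA polymerase II, and each is transcribed on the strand of its miRNA (GENCODE v29). MIR101-1 lies at chr1:65058434-65058508 on the minus strand with no overlapping gene. MIR101-2 lies at chr9:4850297-4850375 on the plus strand in an intron of RCL1 and overlaps an exon of the antisense gene AL158147.1. miR-26a-5p is found whole in both MIR26A loci and miR-101-3p in both MIR101 loci, so their reads cannot be split by locus. Each locus has a passenger of its own, which is why the 5p arms of miR-101 and the 3p arms of miR-26a are counted separately.

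The libraries held from 1814568 to 2289926 miRNA reads in homozygous, 1000101 to 1833057 in hemizygous, 137655 to 165317 in null and 2680973 to 2725756 in wild-type cells. Values are RPM, reads scaled to a deposited denominator of each library that is not its miRNA total. The miRNA reads came to 0.729 times the denominator in hemizygous replicate 1, against 2.42 in hemizygous replicate 2. The ratio was 2.18 to 2.43 in homozygous and 0.118 and 0.183 in null libraries, against 2.09 and 2.33 in wild-type libraries. Hemizygous replicate 1 stood apart from its partner, with miRNAs a median of 1.93 lower on the log2 scale, so hemizygous results are given with and without it. Dicer mRNA was not measured, and the labels were not checked on it. All 8 pluripotency miRNAs looked for were present, with sums of 1085160 to 1182080 RPM in homozygous, 375839 to 1219380 in hemizygous, 61779 to 83533 in null and 829207 to 886977 in wild-type cells. Fibroblast markers (3 of 5 measured) summed to at most 410.3 RPM in any library. Blood markers (3 of 4 measured) summed to 1869 to 2193 RPM in homozygous, 505 to 2055 in hemizygous, 120 to 148 in null and 1252 to 1374 in wild-type cells. Muscle markers (2 of 3 measured) summed to at most 669 RPM in any library, and the liver marker looked for was not among the miRNAs measured. Neural markers (2 of 2 measured, led by miR-124-3p) summed to 22310 to 27029 RPM in homozygous, 11347 to 26863 in hemizygous, 661 to 985 in null and 14374 to 16289 in wild-type cells, and the part of such cells in the results was not tested. In bulk RNA, fewer cells of a type and less of a miRNA per cell cannot be told apart.

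The guides of the families parted in S1344L cells, as the medians of all 5p and all 3p arms did. Both miR-26 guides fell against wild-type cells in homozygous and in hemizygous cells, and did so under each of the 4 scalings tried. The miR-101 guide had a mean of 24091 ± 3570 RPM in homozygous cells against 11529 ± 2197 RPM in wild-type cells (SD, n = 2 each), a difference that did not pass the test. The passengers moved the other way round: the main miR-101 passenger, a 5p arm, fell, and the miR-26a passengers, 3p arms, rose in homozygous cells. The miR-26a passengers were added after their values were seen, and their rises depended on the libraries kept, as given below. The other passengers, miR-101-2-5p and miR-26b-3p, were lower and higher in homozygous cells, but neither difference passed the test. Within each of the 3 sets of hairpins the balance of arms shifted toward 3p in both S1344L genotypes, as it did in most hairpins measured.

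miR-26a-5p, the main guide of its family, had 3317 and 2772 RPM in homozygous cells, 1058 and 3588 RPM in hemizygous cells and 446 and 532 RPM in null cells, against 12672 and 13534 RPM in wild-type cells. No mutant library reached the wild-type range, and the null libraries were the lowest. miR-26b-5p, the minor guide with the same seed, had 379 and 252 RPM in homozygous cells, 44.8 and 343 RPM in hemizygous cells and 53.2 and 64.6 RPM in null cells, against 2111 and 2553 RPM in wild-type cells. It too lay below wild type in every mutant library, and hemizygous replicate 1 was below both null libraries.

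miR-101-3p, the guide of the other family, had 26615 and 21567 RPM in homozygous cells, 5270 and 27741 RPM in hemizygous cells and 343 and 472 RPM in null cells, against 9976 and 13082 RPM in wild-type cells. Both homozygous libraries were above both wild-type libraries. The hemizygous libraries straddled them, with replicate 1 below and replicate 2 above. By mean RPM, miR-101-3p ranked 17th of all miRNAs in homozygous and 18th in hemizygous cells, against 31st in wild-type cells, while miR-26a-5p ranked 88th and 80th against 27th.

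Passengers were far less abundant than their guides. miR-101-5p, the passenger of MIR101-1, had 63.0 and 37.9 RPM in homozygous cells, 19.3 and 73.4 RPM in hemizygous cells and 33.9 and 97.8 RPM in null cells, against 261 and 686 RPM in wild-type cells. Every mutant library lay below both wild-type libraries, and the mutant groups overlapped one another. miR-101-2-5p, the passenger of MIR101-2, had 23.8 and 16.2 RPM in homozygous cells, 12.0 and 19.2 RPM in hemizygous cells and 11.1 and 33.9 RPM in null cells, against 49.4 and 88.6 RPM in wild-type cells. These values stand on 13 to 25 reads in each mutant library and 63 and 103 reads in wild type, and again no mutant library reached wild type.

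miR-26b-3p, the passenger of MIR26B, had 68.3 and 67.9 RPM in homozygous cells, 11.3 and 155 RPM in hemizygous cells and 1.07 and 4.66 RPM in null cells, against 15.2 and 44.9 RPM in wild-type cells. The homozygous libraries were above both wild-type libraries, the hemizygous ones fell on either side of them, and the null values stand on 1 and 3 reads. Of the miR-26a passengers, miR-26a-2-3p had 235 and 249 RPM in homozygous cells, 14.9 and 346 RPM in hemizygous cells and 5.36 and 8.65 RPM in null cells, against 11.3 and 60.3 RPM in wild-type cells. miR-26a-1-3p had 85.3 and 60.7 RPM in homozygous cells, 8.38 and 110 RPM in hemizygous cells, and 4.28 and 22.7 RPM in wild-type cells. In null cells miR-26a-1-3p had 0 and 3 reads, and a count of 0 there allows up to 3 reads, or 2.14 RPM. Both arms were above every wild-type library in homozygous cells and in hemizygous replicate 2, and hemizygous replicate 1 lay within the wild-type range.

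**Figure D1:**
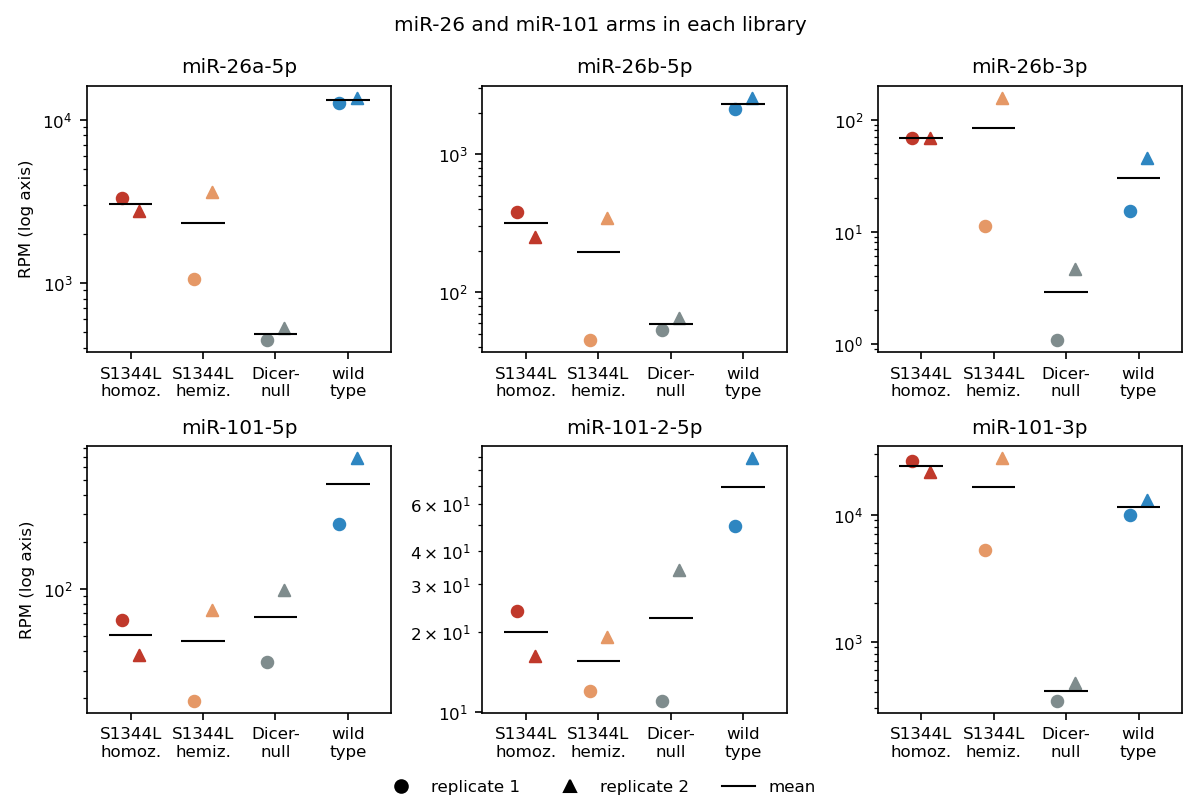
RPM of each of the 6 arms in every library, on log axes, with circles for replicate 1, triangles for replicate 2 and a line at the mean of the 2 libraries of a genotype. miR-26a-5p and miR-26b-5p lie below wild type in all mutant libraries, while miR-101-3p lies above wild type in both homozygous libraries at 26615 and 21567 RPM, and hemizygous replicate 1 is the lower of its pair for every arm.

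The comparison of homozygous with wild-type cells asks how S1344L without a wild-type allele changes the families. limma on log2(RPM + 1), with Benjamini-Hochberg adjustment over all 594 miRNAs and a call at an adjusted p under 0.05, called 3 of the 6 arms, all lower. Among all miRNAs 32.2% were called and 22.2% were called lower. Of the 227 arms named 5p, 48.9% were called lower and the median log2 fold change was -2.25. The calls were miR-26a-5p at a log2 fold change of -2.11 (SE 0.85, adjusted p = 0.0428), miR-26b-5p at -2.91 (SE 0.95, adjusted p = 0.00985) and miR-101-5p at -3.09 (SE 1.00, adjusted p = 0.00882). miR-26a-5p stood at percentile 51.1 of the 5p arms, so its fall was of the size usual for a 5p arm here. miR-101-2-5p was at -1.70 (adjusted p = 0.196), miR-26b-3p at 1.34 (adjusted p = 0.332) and miR-101-3p at 1.07 (95% interval -0.53 to 2.67, adjusted p = 0.367). The miR-26a passengers rose, miR-26a-1-3p by a log2 fold change of 2.71 (SE 0.95, adjusted p = 0.0175) and miR-26a-2-3p by 3.15 (SE 1.00, adjusted p = 0.00793), where the median of 300 arms named 3p was 0.68 and 9.93% of all miRNAs were called higher.

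These errors pool the spread of all 8 libraries, and the hemizygous pair widens it. In a fit of only the homozygous and wild-type libraries all 6 arms were called, with miR-101-3p higher at the same 1.07 (adjusted p = 0.000444), miR-26b-3p higher (adjusted p = 0.0477) and miR-101-2-5p lower (adjusted p = 0.0102). In that fit 62.6% of all miRNAs were called, with 36.2% called lower and 26.4% higher. In the fit over all libraries the call of miR-26a-5p was the weakest. It was lost without either homozygous library (adjusted p = 0.244 and 0.332), either null library (0.0769 and 0.0762) or either wild-type library (0.282 and 0.284), at log2 fold changes between -2.24 and -1.98. miR-26b-5p and miR-101-5p were lost without either homozygous or either wild-type library, at log2 fold changes of -3.20 to -2.61 and -3.78 to -2.39, with adjusted p of up to 0.215 and 0.266. The rises of the miR-26a passengers were lost without either homozygous library, miR-26a-1-3p at 2.46 and 2.95 and miR-26a-2-3p at 3.19 and 3.10, and without wild-type replicate 1 at 1.62 and 1.99. Relative to the miRNA reads of each library, miR-26a-1-3p was also not called, at 2.50 (adjusted p = 0.0672). miR-101-3p was called higher without hemizygous replicate 1 (adjusted p = 0.0163) or hemizygous replicate 2 (adjusted p = 0.0171).

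In hemizygous cells, which carry S1344L on a single allele, the same 3 arms were called lower and none higher. Among all miRNAs 34.7% were called, 30.6% lower and 4.04% higher, and 60.8% of the 5p arms were called lower. miR-26a-5p was at a log2 fold change of -2.75 (SE 0.85, adjusted p = 0.00558), miR-26b-5p at -4.21 (SE 0.95, adjusted p = 8.51e-05) and miR-101-5p at -3.45 (SE 1.00, adjusted p = 0.00269), beside a median of -2.93 over the 5p arms. miR-101-2-5p was at -2.05 (adjusted p = 0.0937), miR-26b-3p at 0.69 (adjusted p = 0.667) and miR-101-3p at 0.08 (95% interval -1.52 to 1.68, adjusted p = 0.956). The miR-26a passengers were at 1.53 for miR-26a-1-3p and 1.44 for miR-26a-2-3p (adjusted p = 0.224 and 0.292).

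Much of this comparison turned on hemizygous replicate 1. Without it 5 of the 6 arms were called: miR-26a-5p was at -1.87 (adjusted p = 0.00352), miR-26b-5p at -2.75 (adjusted p = 0.0023) and miR-101-5p at -2.51 (adjusted p = 0.0266), all lower, while miR-101-3p was higher at 1.28 (adjusted p = 0.0208) and miR-26b-3p higher at 2.52 (adjusted p = 0.0264). Of all miRNAs 44.1% were then called, 27.8% lower and 16.3% higher. The miR-26a passengers were then also called higher, miR-26a-1-3p at 3.32 and miR-26a-2-3p at 3.66. Without hemizygous replicate 2 instead, miR-101-3p was called lower at -1.12 (adjusted p = 0.0294) and miR-26b-3p was at -1.15, in a fit that called 62.3% of all miRNAs, 59.4% lower. The direction of miR-101-3p in hemizygous cells therefore depended on which library was kept, and that of miR-26a-5p, miR-26b-5p and miR-101-5p did not. The fall of miR-26b-5p was called in all 18 alternatives. The fall of miR-26a-5p was lost without wild-type replicate 1 (-2.80, adjusted p = 0.0991), without wild-type replicate 2 (-2.70, adjusted p = 0.127) and in a fit of only the 4 libraries compared (adjusted p = 0.111). That of miR-101-5p was lost without wild-type replicate 2 (-2.75, adjusted p = 0.171) and in the fit of only those libraries (adjusted p = 0.062).

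Hemizygous and homozygous cells, compared for the dose of the mutant allele, gave no call among the 6 arms. In this comparison 0% of the 594 miRNAs were called by limma, with 7 at an unadjusted p under 0.05 and none of them among the 6 arms, and limma-voom on the recovered reads called 0 with 12 at an unadjusted p under 0.05. The arms ran from -1.30 (miR-26b-5p, 95% interval -3.17 to 0.56) to -0.35 (miR-101-2-5p), so a difference of several-fold lies within the intervals. Without hemizygous replicate 1 the log2 fold changes of miR-26a-5p, miR-26b-5p and miR-101-3p were 0.24, 0.15 and 0.21. Without hemizygous replicate 2 they were called lower at -1.52, -2.76 and -2.18 (adjusted p = 0.0127, 0.00842 and 0.00842), and miR-26b-3p was called lower at -2.49 (adjusted p = 0.0217). In that fit 72.9% of all miRNAs were called and 72.2% were called lower, so the 4 of 6 arms were near the background.

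Dicer-null cells show what is left of the families without the enzyme. On the deposited scale 5 of the 6 arms were called lower, in a comparison in which 88.6% of all miRNAs were called and 87.2% were called lower, against 1.35% higher. miR-101-3p was at a log2 fold change of -4.82 (SE 0.82, adjusted p = 1.79e-08), miR-26a-5p at -4.75 (SE 0.85, adjusted p = 1e-07), miR-26b-5p at -5.28 (SE 0.95, adjusted p = 1e-07), miR-26b-3p at -2.99 (SE 0.98, adjusted p = 0.00288) and miR-101-5p at -2.85 (SE 1.00, adjusted p = 0.00533). The 3 guides thus sat near the median of all miRNAs in the null, -4.49. Both miR-101 passengers lay above that median, miR-101-2-5p at -1.71 (adjusted p = 0.0909), and so did miR-26b-3p. The difference between the arms of a hairpin was tested as the 3p/5p ratio, given below. miR-101-5p was not called without null replicate 1 (-2.10, adjusted p = 0.118) or wild-type replicate 2 (-2.16, adjusted p = 0.149), nor was miR-26b-3p without those libraries (-2.27 and -2.24, adjusted p = 0.09 and 0.12).

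The miR-101 guide stood far above its null level in the S1344L cells, as most 3p arms did on the deposited scale. Of the 300 arms named 3p, 96.3% were called higher than in null cells in homozygous cells and 90% in hemizygous cells. Their median log2 fold changes were 4.88 and 3.99. miR-101-3p stood at percentile 72.7 of the 3p arms in both comparisons, so its rise did not stand out among them. In homozygous cells 4 of the 6 arms were called higher, where 78.3% of all miRNAs were called and 76.3% were called higher, against 2.02% lower. miR-101-3p was 59.4-fold higher (log2 fold change 5.89, SE 0.82, adjusted p = 9.9e-12), miR-26b-3p was at 4.34 (adjusted p = 2.13e-05), miR-26a-5p at 2.64 (adjusted p = 0.00316) and miR-26b-5p at 2.38 (adjusted p = 0.017). The miR-101 passengers were close to the null level, with miR-101-5p at -0.24 (95% interval -2.19 to 1.72) and miR-101-2-5p at 0.01 (95% interval -1.92 to 1.94). In hemizygous cells 3 of the 6 arms were called higher, where 64.8% of all miRNAs were called, 63.8% higher and 1.01% lower. miR-101-3p was at 4.91 (adjusted p = 2.85e-08), miR-26b-3p at 3.68 (adjusted p = 0.000444) and miR-26a-5p at 2.00 (adjusted p = 0.0316), while miR-26b-5p was at 1.07 (adjusted p = 0.315). Both comparisons share the null libraries, in which miR-26b-3p has 1 and 3 reads. The call of miR-26a-5p was lost without homozygous replicate 1 in homozygous cells (2.51, adjusted p = 0.068). That of miR-26b-5p in homozygous cells was lost without either homozygous or either null library (2.08 to 2.67, adjusted p = 0.0576 to 0.174), whereas miR-101-3p was called in all 18 alternatives in both genotypes. In hemizygous cells the call of miR-26a-5p was lost when any homozygous, null or wild-type library was left out (1.87 to 2.12, adjusted p = 0.0803 to 0.168) and in a fit of only the 4 libraries compared (adjusted p = 0.219), and that of miR-26b-3p without hemizygous replicate 2 (1.84, adjusted p = 0.0724). Without hemizygous replicate 1, miR-26b-5p was called higher in hemizygous cells at 2.53 (adjusted p = 0.00103).

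**Figure D2:**
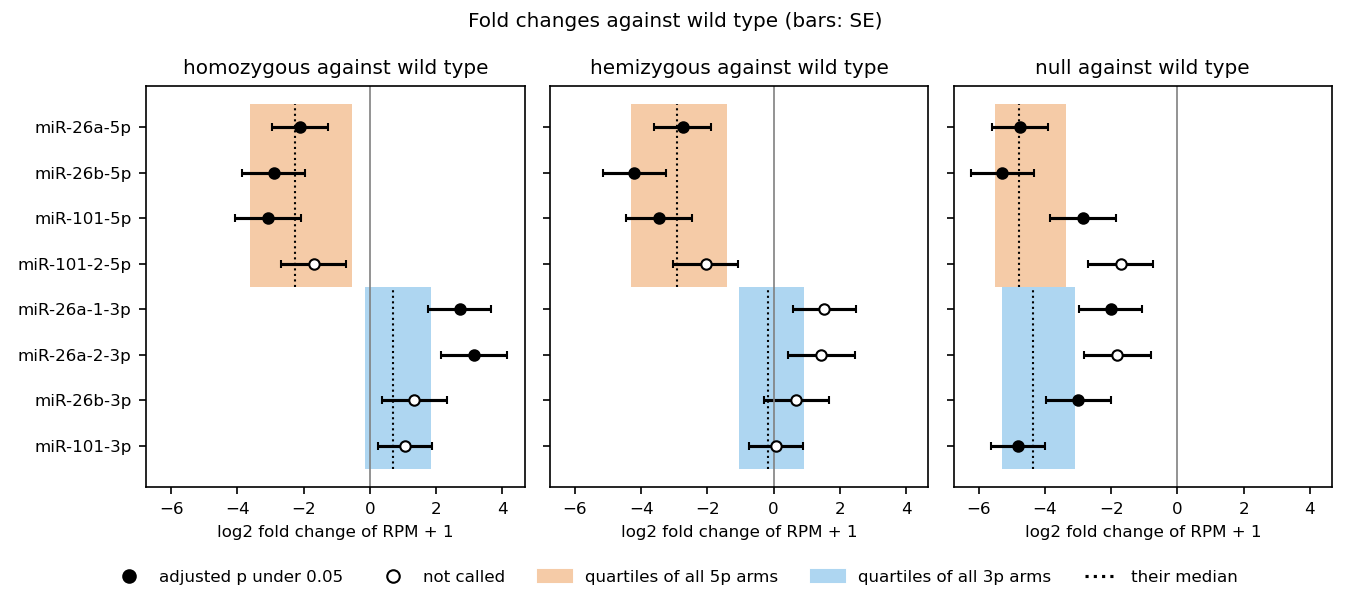
Log2 fold change of RPM + 1 against wild type for the 6 arms and both miR-26a 3p arms, 1 panel per mutant genotype, with bars for the SE, filled points for an adjusted p under 0.05, and shaded bands from the lower to the upper quartile of all 5p and all 3p arms with a dotted median. On the deposited scale the miR-26 guides and miR-101-5p are called lower in all 3 panels (in null cells miR-101-5p turns to 1.03 relative to own miRNA reads), and miR-101-3p is at 1.07, 0.08 and -4.82 in homozygous, hemizygous and null cells.

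How far a level fell depended on what a library was scaled to. Relative to the miRNA reads of the same library, the median log2 fold change of all miRNAs was -0.10 in homozygous, -0.18 in hemizygous and -0.84 in null cells, against -0.04, -0.89 and -4.49 on the deposited scale. On that scale miR-26a-5p was at -2.17 and miR-26b-5p at -2.96 in homozygous cells, and at -2.02 and -3.48 in hemizygous cells, all called. miR-101-3p was called higher at 1.01 in homozygous (adjusted p = 0.00546) and 0.81 in hemizygous cells (adjusted p = 0.0158), where 52.8% and 52.6% of all miRNAs were called. Median-ratio and upper-quartile scaling moved the median of all miRNAs to 0.37 and 0.83 in homozygous cells. With the median of all miRNAs subtracted, miR-26a-5p in homozygous cells lay between -2.07 and -2.04 under these 3 other scalings. Likewise miR-26b-5p lay between -2.86 and -2.83 and miR-101-3p between 1.11 and 1.14. The parting of the guides thus held relative to the median of all miRNAs, which mixes 5p and 3p arms. Relative to their own arms the guides did not stand out. On the deposited scale all 3 lay within the quartiles of all 5p arms (-3.61 to -0.54) or all 3p arms (-0.14 to 1.83) in homozygous cells.

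In null cells the scaling decided the calls. Relative to each library's own miRNA reads, the guides were still called lower, miR-26a-5p at -0.84 (adjusted p = 0.00544), miR-26b-5p at -1.40 (adjusted p = 0.0182) and miR-101-3p at -0.92 (adjusted p = 0.00884), beside the median of -0.84 and a share called of 58.2%. With median-ratio or upper-quartile scaling none of the 3 guides was called in null cells. The miR-101 passengers turned round. Relative to own miRNA reads miR-101-5p was at 1.03 (adjusted p = 0.121) and miR-101-2-5p at 2.10 (adjusted p = 0.0109). With median-ratio and upper-quartile scaling both were called higher, miR-101-5p at 1.63 and 2.12 (adjusted p = 0.0157 and 0.00599) and miR-101-2-5p at 2.69 and 3.16. Relative to own miRNA reads the miR-26 guides were lower in S1344L cells than in null cells, the reverse of the deposited scale. miR-26a-5p was at -1.33 in homozygous against null cells (adjusted p = 0.000433) and -1.17 in hemizygous against null cells (adjusted p = 0.000951), and miR-26b-5p at -1.56 and -2.08 (adjusted p = 0.00918 and 0.00269). Both miR-101 passengers were called lower than in null cells too, with miR-101-5p at -4.14 in homozygous and -3.74 in hemizygous cells, while miR-101-3p stayed higher at 1.93 and 1.73. Under all 3 of these scalings miR-26b-3p was not called against the null in homozygous cells, and neither was it in hemizygous cells.

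The same reversal is plain in shares of a library, which do not use the deposited denominators. The miR-26 guides together took 0.152% and 0.139% of miRNA reads in homozygous, 0.151% and 0.162% in hemizygous and 0.422% and 0.325% in null cells, against 0.708% and 0.690% in wild-type cells. The lowest share was in the S1344L libraries and not in the null ones. miR-101-3p took 1.10% and 0.989% in homozygous, 0.723% and 1.14% in hemizygous and 0.290% and 0.257% in null cells, against 0.478% and 0.561% in wild-type cells, so that by share all 4 S1344L libraries were above wild type. The 3 guides summed to 1.25% and 1.13% in homozygous, 0.874% and 1.31% in hemizygous and 0.713% and 0.582% in null cells, against 1.19% and 1.25% in wild-type cells. The summed share of homozygous and hemizygous libraries overlapped wild type while its makeup did not.

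Of the reads of these 3 guides, miR-101-3p held 87.8% (95% Wilson interval 87.4 to 88.2) and 87.7% (87.3 to 88.2) in homozygous cells. It held 82.7% (81.9 to 83.5) and 87.6% (87.2 to 88.0) in hemizygous cells and 40.7% (38.0 to 43.6) and 44.2% (40.8 to 47.7) in null cells, against 40.3% (39.8 to 40.8) and 44.9% (44.3 to 45.4) in wild-type cells. The difference from wild type was 45.2 points in homozygous, 42.6 in hemizygous and -0.10 in null cells. By exact permutation, two-sided, p was 0.333 in homozygous and in hemizygous cells, the smallest value that 2 against 2 libraries allow, so no share here can pass a threshold of 0.05. The replicates of every genotype lay far closer together than this gap. Intervals cover counting error only, since no molecular identifiers are named.

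**Figure D3:**
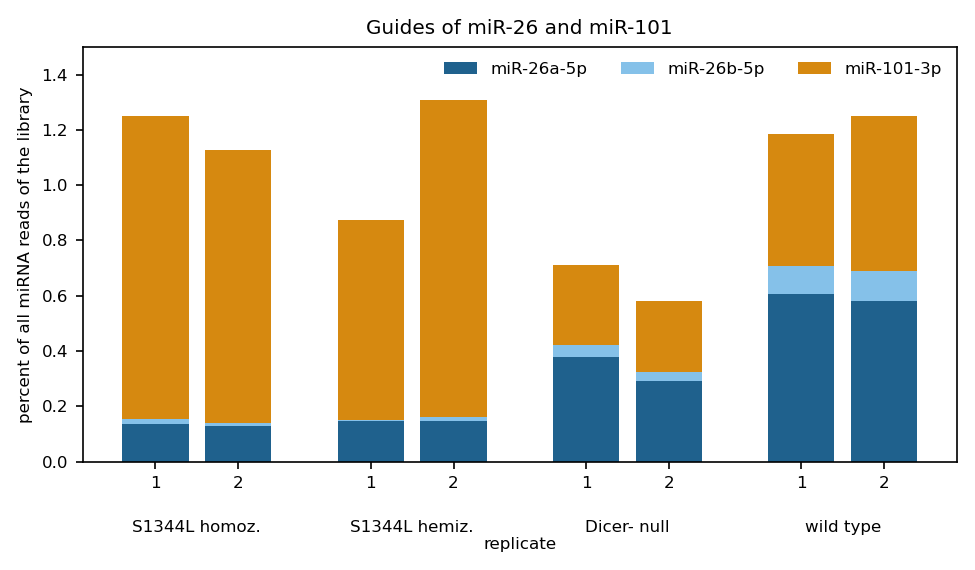
Percent of all miRNA reads held by miR-26a-5p, miR-26b-5p and miR-101-3p, stacked for each library and ordered by genotype. The summed bars of homozygous and wild-type libraries are of like height (1.25% and 1.13% against 1.19% and 1.25%), while the miR-101-3p part fills most of the S1344L bars and less than the miR-26 part in null and wild-type bars.

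Between the 2 miR-26 guides, which share a seed, the minor one held a smaller part in every mutant library than in wild type. miR-26b-5p made up 10.2% and 8.31% of their joint reads in homozygous, 4.03% and 8.71% in hemizygous and 10.6% and 10.7% in null cells, against 14.3% and 15.9% in wild-type cells. The groups did not overlap (exact two-sided permutation p = 0.333 for each genotype). Among the miR-101 passengers the MIR101-2 arm held a larger part in every mutant library. miR-101-2-5p made up 27.2% and 29.5% of their reads in homozygous, 38.1% and 20.3% in hemizygous and 24.2% and 25.5% in null cells, against 15.8% and 11.4% in wild-type cells. These shares rest on as few as 42 reads, and the upper bound in hemizygous replicate 1 was 53.2%. Between the miR-26a passengers, miR-26a-2-3p held 73.4% and 80.5% in homozygous and 64.5% and 75.9% in hemizygous cells, against 73.7% and 72.9% in wild-type cells, and the groups overlapped.

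The 3p/5p ratio within a hairpin does not depend on the scale of a library, apart from the 1 RPM added to both arms. For miR-26b the log2 ratio was -2.45 and -1.88 in homozygous, -1.90 and -1.14 in hemizygous and -4.71 and -3.53 in null cells, against -7.03 and -5.80 in wild-type cells. All S1344L libraries lay above wild type, and every value stayed below 0, so the 5p guide remained the more abundant arm. The null values rest on 1 and 3 reads of the 3p arm and depend on the added RPM, and by share of reads null replicate 1 (1.33%) lay within the wild-type range (0.696% to 1.71%). For miR-101 with its 5p arms of both loci summed, it was 8.24 and 8.61 in homozygous, 7.35 and 8.21 in hemizygous and 2.90 and 1.83 in null cells, against 5.00 and 4.08 in wild-type cells. The S1344L libraries lay above wild type and the null libraries below it. For miR-26a with the 3p arms of both loci summed, it was -3.37 and -3.16 in homozygous, -5.45 and -2.97 in hemizygous and -6.06 and -5.22 in null cells, against -9.58 and -7.33 in wild-type cells.

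limma over 186 hairpins called both named hairpins, miR-26b and miR-101, shifted toward 3p in homozygous cells, in a comparison in which 80.1% of hairpins were called, 79% toward 3p and 1.08% toward 5p. The miR-26b ratio changed by 4.25 on the log2 scale, a 19.0-fold change (SE 0.62, adjusted p = 1.56e-05). The miR-101 ratio, taken over miR-101-5p alone, changed by 4.16 or 17.8-fold (SE 0.64, adjusted p = 2.96e-05), and by 3.89 with both 5p arms summed. The median change of all 186 hairpins was 3.29. In hemizygous cells both were again called toward 3p, where 79.6% of hairpins were called, 77.4% toward 3p and 2.15% toward 5p, with miR-26b at 4.89 (adjusted p = 4.39e-06) and miR-101 at 3.53 (adjusted p = 0.000146) beside a median of 2.87. These 4 calls held in all 13 alternatives, hemizygous replicate 1 left out among them. For miR-26a, whose summed arms were added after the data had been seen, the change was 5.19 in homozygous (SE 0.83, adjusted p = 4.69e-05) and 4.25 in hemizygous cells (adjusted p = 0.000301). No alternative was run for the miR-26a ratio, so it was not fitted without hemizygous replicate 1. The hemizygous log2 ratios of miR-26a were -5.45 in replicate 1 and -2.97 in replicate 2.

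Null cells differed in the ratio. There 45.7% of hairpins were called, of all hairpins 27.4% toward 3p and 18.3% toward 5p. Their median change was 0.27. miR-26b shifted toward 3p by 2.29 (SE 0.62, adjusted p = 0.00791) on 1 and 3 reads of its 3p arm, a size that followed the RPM added, with 2.07 for 0.5 RPM (adjusted p = 0.0269) and 3.14 for 5 RPM. The shares of reads in null and wild-type cells overlapped. miR-101 shifted toward 5p, at -1.97 (SE 0.64, adjusted p = 0.0234). Both were lost without null replicate 2, at 1.70 and -1.45 (adjusted p = 0.0642 and 0.156), and without wild-type replicate 1, at 1.68 and -1.47 (adjusted p = 0.0954 and 0.178). The shift of miR-101 in the null was thus opposite in sign to its shift in S1344L cells, and the direct comparison with the null gave 6.13 in homozygous (adjusted p = 7.23e-07) and 5.50 in hemizygous cells (adjusted p = 2.46e-06), where 80.1% and 80.6% of hairpins were called, 78% and 78.5% toward 3p. For miR-26b these were 1.96 (adjusted p = 0.00875) and 2.60 (adjusted p = 0.00132). The value of 1.96 was lost without homozygous replicate 2 (1.67, adjusted p = 0.0861), without null replicate 1 (1.37, adjusted p = 0.0709) and with 5 RPM added in place of 1 (0.95, adjusted p = 0.0612). The limma fit with arms summed over loci also called miR-26a toward 3p in null against wild-type cells, at 2.82 (SE 0.83, adjusted p = 0.0144). In null cells its 3p arms had 7 and 9 reads. Against null cells miR-26a was at 2.37 in homozygous (adjusted p = 0.0169) and 1.43 in hemizygous cells (adjusted p = 0.126), the latter not called. Between hemizygous and homozygous cells 0% of hairpins were called by limma, with 5 of 186 at an unadjusted p under 0.05, and miR-26b was at 0.65 (SE 0.62, adjusted p = 0.95) and miR-101 at -0.63 (SE 0.64, adjusted p = 0.95).

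As shares of a hairpin, the 3p arm of miR-26b held 15.2% and 21.1% of reads in homozygous, 19.7% and 31.1% in hemizygous and 1.33% and 5.88% in null cells, against 0.696% and 1.71% in wild-type cells. The 3p arms of miR-26a held 8.77% and 10.0% in homozygous, 2.09% and 11.2% in hemizygous and 1.11% and 2.21% in null cells, against 0.117% and 0.603% in wild-type cells. The 5p arms of miR-101 held 0.321% and 0.245% in homozygous, 0.577% and 0.328% in hemizygous and 11.4% and 21.7% in null cells, against 3.01% and 5.58% in wild-type cells. No S1344L library overlapped wild type in any of these shares (exact two-sided permutation p = 0.333 each). The same separation was seen in the median of all 186 hairpins. Their median log2 3p/5p ratio was 1.95 to 2.30 in the S1344L libraries, against -1.41 and -1.33 in wild-type libraries.

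**Figure D4:**
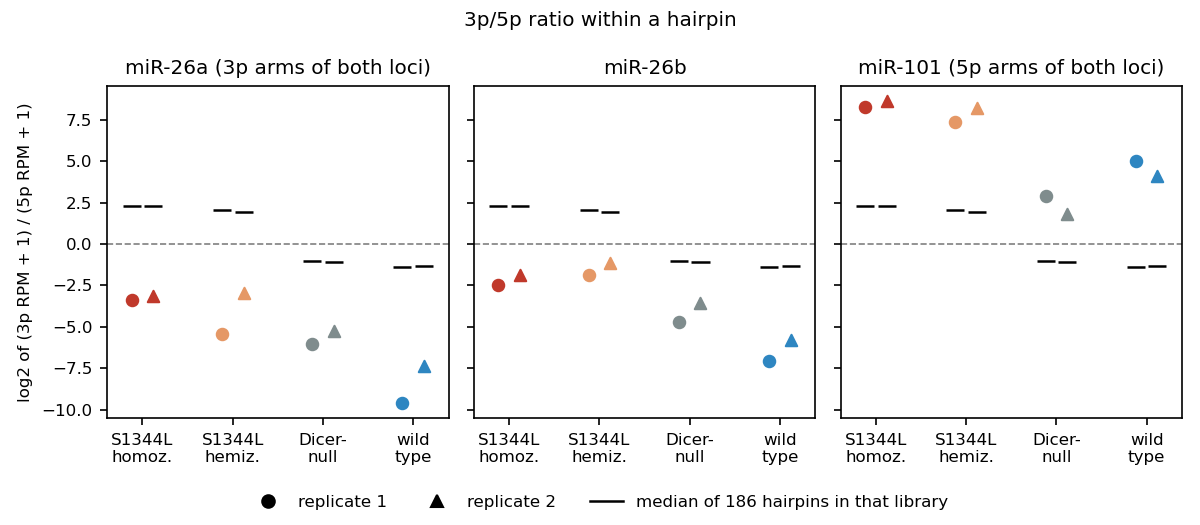
Log2 of (3p RPM + 1) over (5p RPM + 1) in each library for miR-26a, miR-26b and miR-101, with a short line at the median of 186 hairpins in that library and a dashed line at equal arms. All 4 S1344L libraries lie above both wild-type libraries in each panel, miR-26a and miR-26b stay below 0, and in the miR-101 panel the null libraries, at 2.90 and 1.83, lie below wild type.

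The seed matches in EZH2 are shown because they are where both guides would meet. In the 261 bases of the EZH2 3′ UTR (ENST00000320356.6 of GENCODE v29, chromosome 7), the 7-base match to the miR-26 seed, TACTTGA, occurred at 1 place and the match to the miR-101 seed, GTACTGT, at 2 places. Matches were sought on the mRNA strand only and stand in capitals.
miR-26 match, bases 250 to 256 after the stop codon: ctttgaataaagaaTACTTGAa
miR-101 match, bases 59 to 65: ttcaggaacctcgaGTACTGTg
miR-101 match, bases 114 to 120: tctgaatttgcaaaGTACTGTa
Of 15137 windows of the same length from 3′ UTRs, 1.94% held the miR-26 match, 1.38% held the miR-101 match and 0.0529% held both. A match describes letters in this window and is not a measured site, and neither EZH2 mRNA nor its protein was measured.

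The miRNAs whose profiles lay closest to each arm were found by the root-mean-square difference of centred log2(RPM + 1) over the 8 libraries, among 487 miRNAs with at least 50 RPM in some genotype. Closest to miR-26a-5p were miR-16-5p (0.16), miR-518a-5p (0.20) and miR-30a-5p (0.20), and closest to miR-26b-5p were miR-500b-5p (0.28), miR-335-5p (0.28) and miR-151a-5p (0.29). Closest to miR-101-3p were miR-200b-3p (0.07), miR-1-3p (0.16) and miR-3613-5p (0.19), and closest to miR-26b-3p were miR-10396b-3p (0.45), miR-671-3p (0.52) and miR-873-3p (0.52). miR-101-5p and miR-101-2-5p were both closest to miR-331-5p (0.37 and 0.45), followed by miR-302d-5p and miR-486-5p for miR-101-5p and by miR-874-5p and miR-124-5p for miR-101-2-5p. The median distance of the candidates ran from 1.14 for miR-101-3p to 1.99 for miR-101-5p. All 8 libraries share their depth and scale between miRNAs, so a small distance describes these libraries only.

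Other miRNAs with a like target were set beside the 6 arms. Of 3 miRNAs with a related seed, miR-144-3p was measured, and it differs from miR-101-3p within the seed by C8U (the first base is that of miR-101-3p). The others, miR-1297 and miR-4465, were not among the miRNAs measured. miR-144-3p had 173 and 109 RPM in homozygous against 62.7 and 75.7 RPM in wild-type cells, a log2 fold change of 0.98 that was not called (adjusted p = 0.547). Of 10 further miRNAs reported to repress EZH2, 3 were measured, and 1 fell in homozygous cells, 1 in hemizygous cells and 3 in null cells, where 22.2%, 30.6% and 87.2% of all miRNAs were called lower. let-7a-5p, a 5p guide that promotes differentiation, fell to 160 and 135 RPM in homozygous cells, against 6638 and 5486 RPM in wild-type cells (-5.35, SE 0.95, adjusted p = 3.82e-06). miR-138-5p was at -1.08 (adjusted p = 0.444) and miR-124-3p, a neuronal 3p guide, at 0.77 (adjusted p = 0.563).

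Of 6 miRNAs reported to repress SUZ12 or BMI1, other Polycomb proteins, all were measured, and 1 fell in homozygous, 2 in hemizygous and 6 in null cells, with none called higher against wild type. Both lists were thus near the share of all miRNAs called lower. In homozygous cells miR-15a-5p fell (-4.85, SE 0.93, adjusted p = 1.4e-05), while miR-16-5p was at -1.71 (adjusted p = 0.1), miR-200c-3p at 0.74 (adjusted p = 0.6) and miR-128-3p at -0.30 (adjusted p = 0.858), the last turning to 0.11 with median-ratio and 0.60 with upper-quartile scaling. The median log2 fold change in homozygous cells was -1.08 for the measured EZH2 regulators and -0.12 for the SUZ12 and BMI1 regulators, beside -0.04 for all miRNAs.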

How the data were processed

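The deposited values are log2 RPM (CPM in other words) with 0.5 of a read added to each, as read from the values: reads computed back from them were whole to within 7.31e-09. cutadapt, limma and hg38 stand in the submitters' processing notes, without versions for the tools. No source used here names the aligner, the annotation, the counting or the origin of the denominators. The table held 0 spike-in entries, although spike-ins were added per the labels.

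From these, RPM were computed (a count of 1 read was 0.715 to 1.33 RPM). log2(RPM + 1) was fitted with limma 3.58.1 under R 4.3.3, taking group means over all 8 libraries, a variance trend, two-sided tests and Benjamini-Hochberg adjustment over the 594 miRNAs. All 594 passed a filter of 5 RPM in 2 libraries. Log2 3p/5p ratios of 186 hairpins, with arms paired by name, were fitted alike. Both fits were run on simulated counts with the same dispersion for all miRNAs and no library set apart, unlike hemizygous replicate 1 here. That run therefore does not show how the fits behave on these data. A fold change of log2(RPM + 1) understates the change of low miRNAs.

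Sequences are from RefSeq (GRCh38.p14), and genes and UTRs from GENCODE v29. The 6 arms, 3 lists of other regulators and the markers were chosen with earlier results of these data known. Named besides the 6 arms are the 3 closest profiles of each, every measured seed relative, up to 4 regulators per list with the highest mean RPM in wild-type cells, and the miR-26a passengers, added after their values were seen. Alternatives were pseudocounts, filters, 3 scalings, only the libraries compared, a replicate block, limma-voom on recovered reads and each library left out. Leaving out the filter could not change a result, because all 594 miRNAs passed it. Summing arms over loci, an alternative for the ratios, left the log2 ratio change of miR-26b as it was.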

Additional observations from a re-analysis of the deposited data

How the results depend on the processing

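Calls at an adjusted p under 0.05 rest on 2 libraries a genotype, and low passengers rest on few reads, with 1 and 3 reads of miR-26b-3p in null cells. In homozygous against wild-type cells the 3 arms called, all lower, became 5 with each library scaled to its own miRNA reads (4 lower, 1 higher), 5 with upper-quartile scaling (3 lower, 2 higher) and 6 with only the libraries compared (4 lower, 2 higher), and 0 to 5 with a library left out. In hemizygous against wild-type cells the count of 3, all lower, became 5 with median-ratio scaling and 5 with upper-quartile scaling (3 lower and 2 higher under each) and 1 with only the libraries compared, and 1 to 5 with a library left out. In null against wild-type cells the count of 5, all lower, became 2 with median-ratio and 2 with upper-quartile scaling, where both were miR-101 passengers called higher and no arm was called lower, and 3 to 6 with a library left out. Hemizygous against homozygous cells gave 0 to 4 with a library left out, and homozygous against null cells 2 to 4. When scaled to own miRNA reads, by median ratio or by upper quartile, homozygous against null cells gave 5 in place of 4, and hemizygous against null cells gave 5, 5 and 5 in place of 3. In each of these 1 arm was called higher, miR-101-3p, and 4 were called lower, both miR-26 guides and both miR-101 passengers. Of the 2 hairpins called in homozygous against null cells, 1 was called with 5 RPM added and 1 to 2 with a library left out, and in null against wild-type cells 0 to 2 with a library left out. The cause of these changes was not tested, other than the fewer libraries in a fit.

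Directions turned with the scaling, since the median of all miRNAs in null against wild-type cells was -4.49 as deposited, -0.84 relative to own miRNA reads, -0.23 by median ratio and 0.23 by upper quartile. In that comparison, in the order own reads, median ratio, upper quartile, miR-26b-3p was at 0.33, 0.89 and 1.33, miR-101-5p at 1.03, 1.63 and 2.12 and miR-101-2-5p at 2.10, 2.69 and 3.16. The miR-26a passengers were at 0.85, 1.34 and 1.71 (miR-26a-1-3p) and 1.85, 2.42 and 2.85 (miR-26a-2-3p), and by upper quartile alone miR-26a-5p was at 0.26 and miR-101-3p at 0.18. In homozygous against null cells, in the same order, miR-26a-5p was at -1.33, -1.47 and -1.46, miR-26b-5p at -1.56, -1.70 and -1.695 and miR-101-2-5p at -3.80, -3.94 and -3.94, with -0.016 for miR-101-2-5p when 5 RPM were added. In hemizygous against null cells miR-26a-5p was at -1.17, -1.20 and -1.17 and miR-26b-5p at -2.08, -2.11 and -2.08. In hemizygous against homozygous cells miR-26a-5p was at 0.15, 0.26 and 0.29, miR-26b-3p at 0.10, 0.20 and 0.22, miR-101-5p at 0.40, 0.51 and 0.53 and miR-101-2-5p at 0.39, 0.49 and 0.52. miR-128-3p in homozygous against wild-type cells was at 0.11 by median ratio and 0.60 by upper quartile.

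With a library left out, hemizygous values against homozygous cells ran between -1.52 and 0.24 (miR-26a-5p), -2.76 and 0.15 (miR-26b-5p), -2.49 and 1.18 (miR-26b-3p), -1.30 and 0.58 (miR-101-5p) and -2.18 and 0.21 (miR-101-3p). Against null cells they ran between -0.38 and 2.53 (miR-26b-5p), -1.53 and 0.34 (miR-101-5p) and -1.11 and 0.42 (miR-101-2-5p). Against wild-type cells they ran between -1.15 and 2.52 (miR-26b-3p), -1.12 and 1.28 (miR-101-3p), -0.25 and 3.32 (miR-26a-1-3p) and -0.78 and 3.66 (miR-26a-2-3p). Homozygous against null values ran between -0.99 and 0.51 (miR-101-5p) and -0.76 and 0.78 (miR-101-2-5p).

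Replicate numbers were not taken to pair the libraries, since same-numbered libraries deviated together, with a correlation over 0.1, in 1 of 6 pairs of genotypes. That pair was hemizygous and wild type, at a correlation of 0.617, and whether those libraries share a batch was not tested. With a replicate block the counts of the 6 arms called were 3, 3, 5, 0, 4 and 3 for homozygous, hemizygous and null against wild-type cells, hemizygous against homozygous cells, and homozygous and hemizygous against null cells, the same as without it, and the counts of the 2 named hairpins did not move either.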
